A study of Mus musculus with 11 samples.

Results

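The enteroendocrine genes described here are the granins and hormones that mark the hormone-releasing cells of the gut lining, read in sorted epithelium of the mouse small intestine. They were chosen by name from a list of 10: the granins Chga and Chgb, the hormone genes Cck, Sct, Gcg, Pyy, Nts and Sst, the serotonin enzyme gene Tph1 and the transcription factor gene Neurod1. Of these 10, 9 were measured in the deposited table of 11366 genes, and all 9 passed the filter on low values described below. Sst was not analysed here.

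The libraries came from wild-type (WT) mice on 3 regimes. Control mice (libraries 2, 4 and 5) ate standard chow and had no treatment. NFF mice (libraries 1 to 4) were fed a diet low in fermentable fiber, the plant polysaccharides that gut bacteria break down to short-chain fatty acids. SFB mice (libraries 1 to 4) ate standard chow and were colonized with SFB, read here as segmented filamentous bacteria, which attach to the epithelium of the ileum. SFB therefore differ from Control by colonization, NFF differ from Control by diet, and SFB differ from NFF by both. In every group the cells were sorted as live CD45- CD31- EpCAM+ CD44- cells, a gate that keeps epithelial cells and leaves out leukocytes, endothelium and cells with the crypt marker CD44. The labels do not say that each library is a separate mouse, and they do not name the stretch of intestine taken, so the p-values measure the spread between these libraries.

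Enteroendocrine cells are scattered single cells of the gut epithelium that release peptide hormones or serotonin from dense-core granules when they sense nutrients or microbial products. Granins are acidic proteins that help pack these granules. Prohormones are cut inside the granules to the active peptides. The hormones made change along the gut: cholecystokinin and secretin cells are known mainly from the proximal small intestine, whereas cells making peptide YY, neurotensin and the glucagon-like peptides are known mainly from the distal part. Serotonin cells, which need Tph1, are found along the whole tract. In bulk RNA such as this, fewer cells of a type and less RNA per cell cannot be told apart.

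Values are RPKM, reads scaled to the length of the gene and to the mapped reads of the library, so levels of different genes can be set side by side. The depth of the libraries is not known from these values. Summed RPKM per library ran from 237248 to 302661, and the number of genes under 0.3 RPKM ran from 29 in SFB 3 to 496 in SFB 4. The sort was checked on Epcam, the epithelial gene of the gate, which lay between 489 and 670 RPKM in the 11 libraries, on the pan-leukocyte gene Ptprc, which lay between 0.247 and 2.48 RPKM, and on Cd44. Cd44, a gene of the gate, differed between groups: it lay between 0.457 and 0.969 RPKM in Control, between 0.333 and 0.646 RPKM in NFF and between 1.17 and 2.29 RPKM in SFB. SFB exceeded NFF by 0.80 ± 0.16 (SE) on the log2(RPKM + 1) scale (limma adjusted p = 0.0125), with no overlap of SFB with either group, and its part in the results below was not tested. Certain libraries stand apart. In Control 2, a list of proximal intestine genes had a mean log2 level of 7.21, against 3.79 to 5.64 in the other 10 libraries, and a list of distal genes had 4.02, against 4.48 to 6.05. SFB 4 had the lowest mean of the enterocyte list, 6.69 against 7.42 to 8.43, and the highest mean of the crypt and dividing cell list, 4.32 against 1.87 to 3.47. Values without these libraries are given beside the results that they change most. The Paneth cell list had a mean log2 level of 3.32 in SFB 2, against 6.88 to 9.21 in the other 10 libraries. SFB 2 is left out together with Control 2 and SFB 4 in 1 setting below.

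DNA upstream of the RefSeq starts of the granin genes and of the proximal hormone genes is shown first, because the results below set these genes side by side. The sequences are RefSeq promoter windows of GRCm38.p6, 5′ to 3′ on the strand of the gene, ending at the base before the annotated start, except for Chgb, where only a window around the motif is given. The starts of Chgb differ between annotations: GENCODE M21 begins the gene upstream of the RefSeq start, so the Chgb window lies upstream of the RefSeq start and inside the GENCODE gene. Capitals mark TGACGT, the core of the cAMP response element (written inside its full form TGACGTCA in Chgb), and the E-box forms CAGATG and CAGCTG, the kind of hexamer bound by basic helix-loop-helix factors such as Neurod1. Chga, chr12:102554691-102554940, plus strand; Chgb, chr2:132781559-132781588, plus strand; Sct, chr7:141279134-141279383, minus strand; Cck, chr9:121495695-121495944, minus strand.
Chga: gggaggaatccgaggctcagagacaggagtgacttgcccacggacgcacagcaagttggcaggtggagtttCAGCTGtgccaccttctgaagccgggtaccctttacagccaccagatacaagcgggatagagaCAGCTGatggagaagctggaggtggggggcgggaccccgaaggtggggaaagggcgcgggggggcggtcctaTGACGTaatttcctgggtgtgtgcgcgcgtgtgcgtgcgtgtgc
Chgb: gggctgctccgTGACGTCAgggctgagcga
Sct: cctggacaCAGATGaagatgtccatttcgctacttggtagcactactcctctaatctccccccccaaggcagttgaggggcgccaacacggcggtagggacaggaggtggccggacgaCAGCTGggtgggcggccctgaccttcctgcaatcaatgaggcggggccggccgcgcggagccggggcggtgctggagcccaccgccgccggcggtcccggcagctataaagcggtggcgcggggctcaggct
Cck: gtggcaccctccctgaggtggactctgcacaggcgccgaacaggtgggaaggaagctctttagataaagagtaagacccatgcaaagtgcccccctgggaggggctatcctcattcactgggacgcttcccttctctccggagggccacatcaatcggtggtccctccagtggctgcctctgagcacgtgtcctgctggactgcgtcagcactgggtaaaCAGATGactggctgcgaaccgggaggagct
All 9 measured genes matched RefSeq promoter entries of 300 bases (250 before and 50 after the start), 11 entries in all, and both strands were searched. A gene was counted if any of its entries held the motif, whereas the shares of promoters count single entries. TGACGT was found in Chga, 44 bases upstream of the start, and in Chgb, and these were 2 of the 9 genes, against 7.51% of 32851 promoters. The full TGACGTCA, which contains TGACGT, was found in 1 of the 9, Chgb, 72 bases upstream, against 1.79% of promoters. CAGATG was found in Cck, Sct and Gcg, 3 of the 9, against 17.2%, and CAGCTG in Chga, Chgb, Sct and Nts, 4 of the 9, against 16.3%. The general E-box CANNTG, which contains both, was in all 9 and in 72.3% of promoters. These matches describe letters in a window and were not tested as binding sites.

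Among the 9 genes, Nts was the most abundant by median and the factor and enzyme genes Neurod1 and Tph1 the least. By the median RPKM over 11 libraries the order was Nts (301), Sct (121), Chgb (95.1), Chga (77.9), Pyy (74.9), Gcg (42.5), Cck (8.72), Neurod1 (8.35) and Tph1 (6.98). The ranges of every pair of neighbours in this order overlapped. The spread itself differed between genes: the highest library was 9.98 times the lowest for Chga and 14.7 times for Chgb, but 277 times for Gcg and 216 times for Cck.

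**Figure D1:**
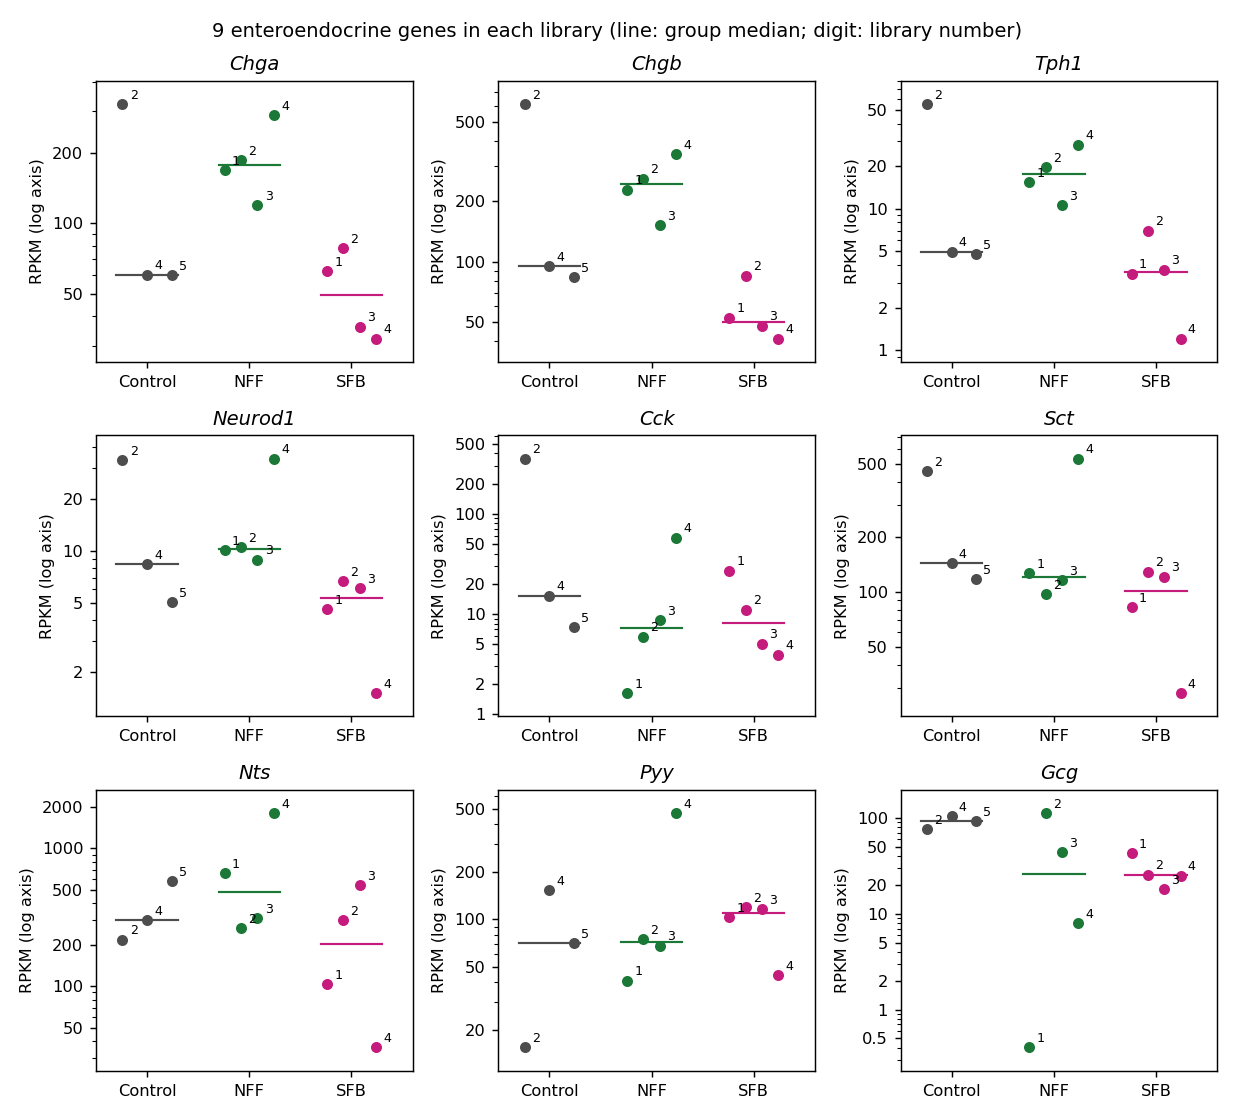
RPKM (log axis) of the 9 measured genes in each of the 11 libraries, one panel per gene, with points numbered by library and lines at group medians. Chga, Chgb, Tph1 and Neurod1 have all 4 NFF libraries above all 4 SFB libraries, with Control 2 far above Control 4 and Control 5, whereas Gcg, Pyy and Nts order the libraries differently.

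The granins were lower in SFB than in NFF libraries. Chga (chromosome 12, 102554969 to 102565028 on the plus strand, GENCODE M21 on GRCm38) encodes chromogranin A, the most used marker of enteroendocrine cells. It was at 321, 60.1 and 59.9 RPKM in Control 2, 4 and 5, at 168, 186, 119 and 288 RPKM in NFF 1 to 4, and at 62.4, 77.9, 36.1 and 32.1 RPKM in SFB 1 to 4. All 4 NFF libraries lay above all 4 SFB libraries, and Control held both a library above every NFF library and 2 libraries within the SFB range. Group means were 147 ± 151 RPKM in Control (SD, n = 3), 190 ± 71.2 RPKM in NFF (n = 4) and 52.1 ± 21.8 RPKM in SFB (n = 4). The SFB minus NFF difference was -1.87 ± 0.50 (SE) on the log2(RPKM + 1) scale (95% interval -2.97 to -0.77, limma, Benjamini-Hochberg adjusted p = 0.0455 over 10482 genes).

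Chgb (chromosome 2, 132781278 to 132795079, plus strand) encodes chromogranin B, which is stored in the same granules. It was at 609.7, 95.1 and 83.8 RPKM in Control 2, 4 and 5, at 229, 260.2, 152 and 344 RPKM in NFF 1 to 4, and at 52.5, 85.0, 48.0 and 41.4 RPKM in SFB 1 to 4. As with Chga, NFF and SFB did not overlap and Control 2 was the highest of all. The means were 263 ± 300.4 RPKM in Control (SD, n = 3), 246 ± 79.5 RPKM in NFF (n = 4) and 56.7 ± 19.4 RPKM in SFB (n = 4). SFB was lower than NFF by a log2 difference of -2.09 ± 0.53 (SE) (95% interval -3.26 to -0.93, limma adjusted p = 0.0368).

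Both granin calls lie close to the threshold. Leaving out 1 library at a time, the Chga difference ranged from -2.09 to -1.65 with adjusted p from 0.00522 to 0.133, and the Chgb difference from -2.31 to -1.91 with adjusted p from 0.00143 to 0.11 (limma). For Chga and Chgb in that order, adjusted p was 0.0796 and 0.0698 without NFF 1, 0.114 and 0.101 without NFF 2, 0.0603 and 0.0512 without NFF 3, 0.133 and 0.11 without NFF 4, 0.0688 and 0.0747 without SFB 1, 0.102 and 0.0818 without SFB 3, and 0.0858 and 0.0686 without SFB 4. Without Control 2, which enters only through the shared spread, adjusted p fell to 0.00522 for Chga and 0.00143 for Chgb.

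Tph1 and Neurod1 followed the granins in direction and did not pass the test. Tph1 (chromosome 7, 46644641 to 46672537, minus strand) encodes tryptophan hydroxylase, the rate-limiting enzyme of serotonin synthesis in the gut. It was at 54.7, 4.99 and 4.76 RPKM in Control 2, 4 and 5, at 15.5, 19.6, 10.6 and 28.3 RPKM in NFF 1 to 4, and at 3.46, 6.98, 3.72 and 1.21 RPKM in SFB 1 to 4. NFF and SFB did not overlap. The SFB minus NFF log2 difference was -2.07 ± 0.65 (SE) (95% interval -3.49 to -0.65, limma adjusted p = 0.0743), on means of 18.5 ± 7.49 RPKM (SD, n = 4) and 3.84 ± 2.37 (SD, n = 4). Without Control 2 its adjusted p was 0.00665, below the threshold.

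Neurod1 (chromosome 2, 79452521 to 79456751, minus strand) encodes a transcription factor that acts in cells committed to the endocrine fate. It was at 33.4, 8.35 and 5.05 RPKM in Control 2, 4 and 5, at 10.1, 10.5, 8.88 and 33.9 RPKM in NFF 1 to 4, and at 4.60, 6.68, 6.09 and 1.51 RPKM in SFB 1 to 4. Means were 15.6 ± 15.5 RPKM in Control (SD, n = 3), 15.8 ± 12.1 RPKM in NFF (n = 4) and 4.72 ± 2.31 RPKM in SFB (n = 4). NFF 4 and Control 2 stood well above the rest, SFB 4 below, and NFF and SFB did not overlap. The log2 difference was -1.46 ± 0.56 (SE) (95% interval -2.69 to -0.23, limma adjusted p = 0.13). The annotation places Neurod1 over the same-strand gene Cerkl and the noncoding gene Gm26755, so reads in shared exons could be assigned to any of them.

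The proximal hormones did not separate SFB from NFF. Cck (chromosome 9, 121489824 to 121495694, minus strand) encodes cholecystokinin, which stimulates gallbladder contraction and pancreatic secretion. It was at 352 RPKM in Control 2 and at 15.2 and 7.41 RPKM in Control 4 and 5. NFF 1 to 4 held 1.63, 5.91, 8.72 and 57.7 RPKM, and SFB 1 to 4 held 27.0, 11.04, 5.05 and 3.91 RPKM. Means were 125 ± 197 RPKM in Control (SD, n = 3), 18.5 ± 26.3 RPKM in NFF (n = 4) and 11.7 ± 10.6 RPKM in SFB (n = 4). The groups overlapped, and Control 2 and NFF 4 lay far above the other libraries of their groups. The SFB minus NFF log2 difference was -0.01 ± 1.15 (SE), with a 95% interval of -2.53 to 2.51 that holds large changes either way (limma adjusted p = 0.996). Against Control the difference was -1.85 ± 1.24 (SE) for NFF and -1.86 ± 1.24 for SFB (adjusted p = 0.896 and 0.595), and without Control 2 it was -0.21 and -0.22.

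Sct (chromosome 7, 141278330 to 141279133, minus strand) encodes secretin, which stimulates bicarbonate secretion by the pancreas. It was at 455, 144 and 117 RPKM in Control 2, 4 and 5, at 126, 97.4, 116 and 533 RPKM in NFF 1 to 4, and at 82.2, 129, 121 and 28.01 RPKM in SFB 1 to 4. Outside Control 2, NFF 4 and SFB 4, all 8 libraries lay between 82.2 and 144 RPKM. Means were 239 ± 188 RPKM in Control (SD, n = 3), 218 ± 210.1 RPKM in NFF (n = 4) and 90.05 ± 46.1 RPKM in SFB (n = 4). The SFB minus NFF log2 difference was -1.09 ± 0.63 (SE) (95% interval -2.46 to 0.29, limma adjusted p = 0.302), and it was -0.53 without NFF 4 and -0.61 without SFB 4.

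The distal hormones gave 3 different patterns. Gcg (chromosome 2, 62474530 to 62483650, minus strand) encodes proglucagon, from which L cells cut the glucagon-like peptides. Its values were 75.7, 104 and 91.9 RPKM in Control 2, 4 and 5, 0.402, 111, 43.99 and 7.93 RPKM in NFF 1 to 4, and 42.5, 25.6, 17.98 and 24.9 RPKM in SFB 1 to 4. All 4 SFB libraries lay below all 3 Control libraries, while NFF ran from the lowest to the highest value of the whole series. Means were 90.5 ± 14.2 RPKM in Control (SD, n = 3), 40.9 ± 50.7 RPKM in NFF (n = 4) and 27.8 ± 10.4 RPKM in SFB (n = 4). NFF 1, with the lowest Gcg and Cck, had 168 RPKM of Chga and 656 RPKM of Nts. The Gcg log2 difference was -1.72 ± 1.10 (SE) for SFB minus Control (95% interval -4.12 to 0.67, limma adjusted p = 0.572) and -2.52 ± 1.10 (SE) for NFF minus Control (95% interval -4.91 to -0.12, limma adjusted p = 0.896). Without NFF 1 the latter was -1.35, and the SFB minus NFF difference went from 0.79 ± 1.02 (SE) to -0.37.

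Pyy (chromosome 11, 102106676 to 102107832, minus strand) encodes peptide YY, which slows transit and reduces food intake. It was at 15.4, 153 and 70.4 RPKM in Control 2, 4 and 5, at 41.0, 74.9, 67.9 and 469 RPKM in NFF 1 to 4, and at 103, 119, 116 and 44.1 RPKM in SFB 1 to 4. Control 2, the highest library for the granins and Cck, was the lowest for Pyy, and the groups overlapped. Means were 79.8 ± 69.5 RPKM in Control (SD, n = 3), 163 ± 204 RPKM in NFF (n = 4) and 95.6 ± 34.96 RPKM in SFB (n = 4). The SFB minus NFF log2 difference was -0.16 ± 0.77 (SE) (95% interval -1.85 to 1.52, limma adjusted p = 0.916), and it turned to 0.58 without NFF 4.

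Nts (chromosome 10, 102481756 to 102490486, minus strand) encodes neurotensin, which is released after fat meals. It was at 218, 301 and 576 RPKM in Control 2, 4 and 5, at 656, 264, 309.6 and 1789 RPKM in NFF 1 to 4, and at 103, 300.3, 540.2 and 35.9 RPKM in SFB 1 to 4. NFF 4 was the highest and SFB 4 the lowest library, and the groups overlapped. Means were 365 ± 188 RPKM in Control (SD, n = 3), 755 ± 711 RPKM in NFF (n = 4) and 245 ± 227 RPKM in SFB (n = 4). The SFB minus NFF log2 difference was -1.82 ± 0.80 (SE) (95% interval -3.56 to -0.08, limma adjusted p = 0.178), and it was -1.26 without NFF 4 and -1.12 without SFB 4.

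**Figure D2:**
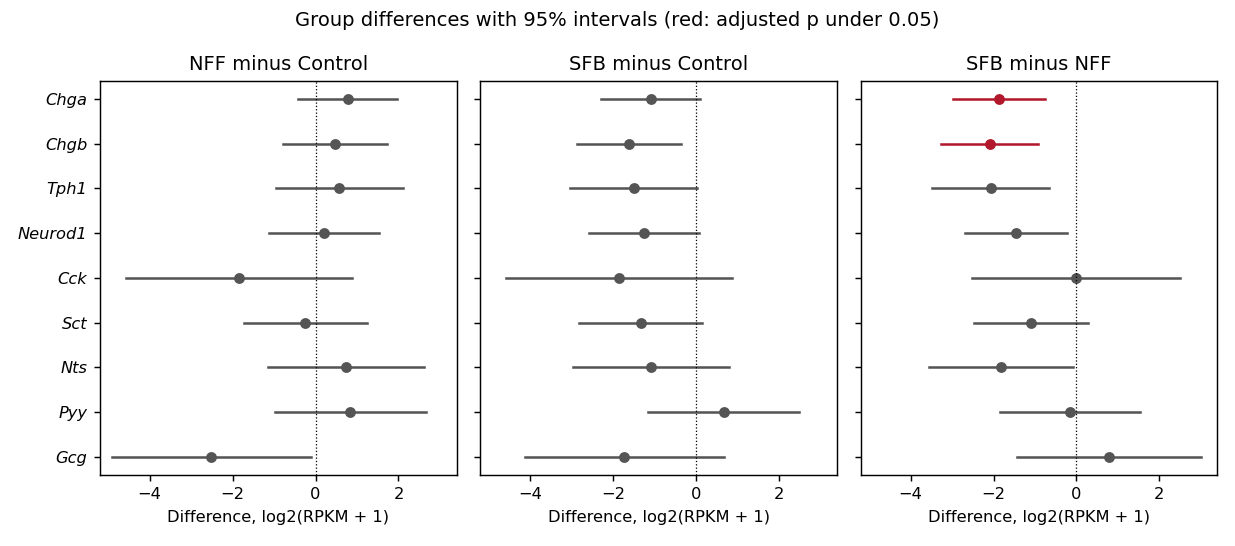
Log2 differences of the 9 genes in the 3 comparisons (points, limma estimate on the log2(RPKM + 1) scale; bars, 95% interval; red, adjusted p under 0.05). The red points are Chga and Chgb in SFB minus NFF, at -1.87 and -2.09, and the intervals of Cck and Gcg are the widest.

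Across the 3 comparisons, called means an adjusted p under 0.05 over all genes tested. In SFB minus NFF, 2 of 9 genes were called, both lower in SFB, where 4.2% of all genes tested were called lower and 7.34% in either direction. NFF and SFB did not overlap for 4 of the 9 (Chga, Chgb, Tph1 and Neurod1), all lower in SFB, where 9.91% of all genes were lower without overlap. At an unadjusted p under 0.05 there were 5 of 9, where 25.7% of all genes had one. The median difference of the 9 was -1.46 (8 below 0), against 0.02 for all genes, 47.3% of which were below 0.

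In SFB minus Control, limma called 0 of 9 genes, with 0.2% of all genes called, and 1 of 9 had an unadjusted p under 0.05, where 12.1% of all genes did. That gene was Chgb, at -1.62 ± 0.57 (SE), with an adjusted p of 0.282. These sizes rest on Control 2. Without it, the SFB minus Control difference went from -1.62 to -0.70 for Chgb, from -1.09 to -0.29 for Chga and from -1.50 to -0.42 for Tph1, and the median of the 9 genes went from -1.33 to -0.52 (all genes, 0.01 with every library). The groups did not overlap for 1 of 9 genes, Gcg, against 6.05% of all genes lower in SFB without overlap.

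In NFF minus Control, limma called 0 of 9 genes and 0% of all genes, and 1 of 9, Gcg, had an unadjusted p under 0.05, where 4.82% of all genes did. The median was 0.48 (6 above 0 and 3 below), against -0.01 for all genes, and it was -0.029 without Control 5, 0.042 without Control 4 and 0.092 without NFF 4, so its direction rests on single libraries. Control 2 aside, all 4 NFF libraries lay above Control 4 and Control 5 for Chga, Chgb and Tph1. Without Control 2 the NFF minus Control difference was 1.58 ± 0.38 (SE) for Chga, 1.39 ± 0.32 for Chgb and 1.65 ± 0.44 for Tph1, with limma adjusted p of 0.541, 0.509 and 0.594, none of them called. The 3 comparisons share groups, so their values for a gene are not independent of each other.

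The balance of proximal and distal hormones set 1 library apart from the other 10. Of the summed RPKM of Cck, Sct, Gcg, Pyy and Nts, the distal hormones (Gcg, Pyy and Nts) made up 27.7% in Control 2, 77.9% in Control 4 and 85.6% in Control 5. The share was 77.2% to 84.5% in the NFF libraries and 69.5% to 84.3% in the SFB libraries. Cck alone was 31.6% of the sum in Control 2 and 0.197% to 7.54% elsewhere. Gene lists that hold none of the 9 genes placed Control 2 the same way: the mean log2 level of the distal list minus that of the proximal list was -3.20 in Control 2 and 0.136 to 0.905 in the other libraries. The labels give the source as small intestine for all 11, and whether the same stretch was taken was not tested.

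**Figure D3:**
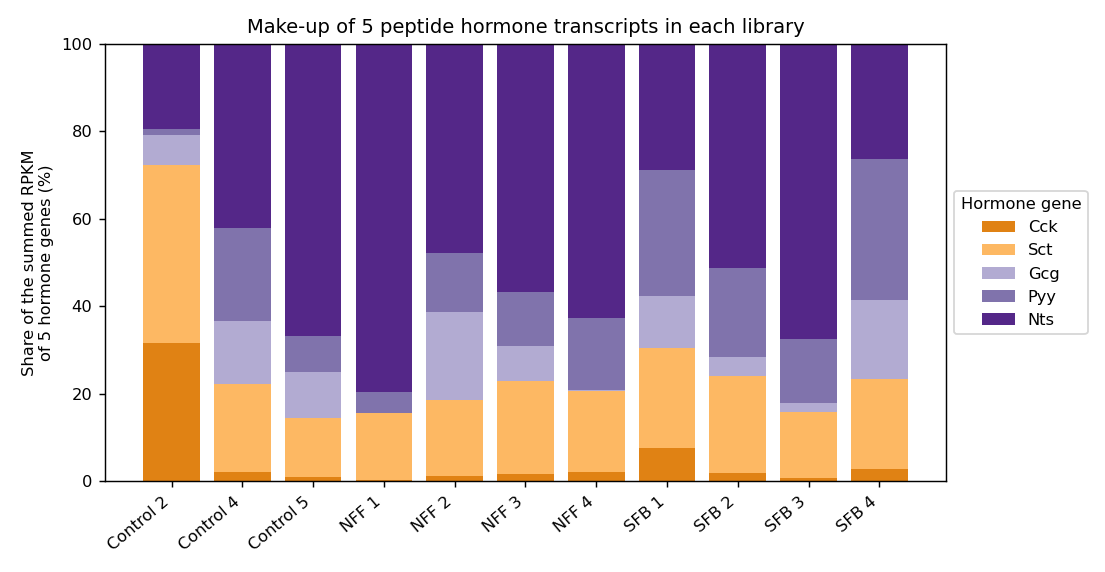
Share of each hormone in the summed RPKM of 5 hormones (stacked bars to 100%, one bar per library). Nts is the largest share in most libraries, and Control 2 stands out with 31.6% Cck and 27.7% for the distal hormones together.

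The relation of each gene to that regional difference was examined over the 11 libraries. For Cck, Pearson r was -0.82 (permutation p = 0.00996, 0.0896 adjusted over 9 genes) and Spearman rho -0.66, and r was -0.38 without the 2 libraries farthest from the median (Control 2 and SFB 3). For Pyy, r was 0.58 (permutation p adjusted to 0.195) and -0.38 without those 2. The granins and Tph1 had r of the same sign as Cck: -0.62 for Chgb, -0.62 for Tph1 and -0.53 for Chga (each with permutation p adjusted to 0.0925). For deviations from group means these were -0.91, -0.87 and -0.87, and without Control 2 and SFB 3 the pooled values were 0.024, 0.012 and 0.072. With SFB 3 kept and Control 2 and NFF 4 left out, r was -0.45 for Cck, -0.19 for Pyy, -0.19 for Chgb, -0.09 for Tph1 and -0.18 for Chga. None of the 9 relations passed an adjusted p under 0.05. Both settings leave out Control 2, and the values over 11 libraries given for these 5 genes rest largely on that library.

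Across libraries, the granins, Tph1 and Neurod1 varied together, and so did Sct by Pearson r. With all 11 libraries no relation of the other hormones to them passed the test, which changed when single libraries were left out. Of 36 pairs among the 9 genes, 10 had an adjusted permutation p under 0.05 for Pearson r of log2(RPKM + 1), and these were the 10 pairs among Chga, Chgb, Tph1, Neurod1 and Sct. By Spearman rho 6 pairs passed, the pairs among Chga, Chgb, Tph1 and Neurod1. Chga and Chgb had r = 0.98 (permutation p adjusted to 9e-05) and rho = 0.95 (adjusted to 0.00018) over 11 libraries. Their r was 0.96 without the 2 libraries farthest from the median, Control 2 and NFF 4, and 0.97 for deviations from group means. Chga and Tph1 had r = 0.97 and rho = 0.95, with 0.96 without those 2 libraries. Neurod1 and Tph1 had r = 0.94 and rho = 0.97.

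Sct stood between the granins and the other hormones. Its r with Neurod1 was 0.95 (permutation p adjusted to 0.00237, rho 0.67 adjusted to 0.138) and remained at 0.88 without NFF 4 and SFB 4. Its r with Chga was 0.76 (adjusted to 0.012) and 0.44 without Control 2 and NFF 4, so that relation rests on those libraries.

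With all 11 libraries, 0 of the 26 pairs that hold Cck, Gcg, Pyy or Nts passed. Chga had r = 0.54 with Cck (permutation p adjusted to 0.165), 0.47 with Nts (adjusted to 0.252), -0.09 with Pyy and -0.16 with Gcg (both adjusted to 0.833). No pair of distal hormones passed: r was 0.49 for Pyy with Nts, -0.10 for Gcg with Pyy and -0.35 for Gcg with Nts. Cck with Pyy, a proximal with a distal hormone, had r = -0.07 over 11 libraries (permutation p adjusted to 0.833) and 0.87 over the 10 libraries without Control 2 (adjusted to 0.00567), so the pooled value rests on that library.

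The pairs that pass depend on single libraries. Without Control 2, 5 of the 26 pairs passed: besides Cck with Pyy, these were Sct with Nts (r = 0.91, permutation p adjusted to 0.00468), Neurod1 with Nts (0.84, adjusted to 0.024), Tph1 with Nts (0.73, adjusted to 0.0442) and Sct with Pyy (0.80, adjusted to 0.0442). With all 11 libraries, Sct with Nts had r = 0.71 (adjusted to 0.054) and Neurod1 with Nts 0.64 (adjusted to 0.0939), and without NFF 4 and SFB 4 these were -0.02 and -0.09. Without NFF 1, which had the lowest Cck, 6 of the 26 passed, among them Cck with Chga (0.72, adjusted to 0.0339), with Chgb (0.72, adjusted to 0.0343), with Tph1 (0.74, adjusted to 0.0335), with Neurod1 (0.79, adjusted to 0.0217) and with Sct (0.79, adjusted to 0.0215). The 6th was Sct with Nts (0.74, adjusted to 0.0408). Without SFB 1, 2 of the 26 passed, Cck with Neurod1 (0.76, adjusted to 0.0359) and Cck with Sct (0.78, adjusted to 0.031). Whether the distal hormones, or Cck, vary apart from the granins is therefore not settled by these 11 libraries. Libraries within a group share their treatment, and levels of genes from the same library share its depth.

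Set against Chga, each gene showed how far its level moved apart from the granins. The ratio of Chgb to Chga ran from 0.842 to 1.90, that of Tph1 from 0.0376 to 0.170 and that of Neurod1 from 0.0470 to 0.168. The ratio of Sct ran from 0.524 to 3.34. The hormone ratios were wider: Cck from 0.00966 in NFF 1 to 1.10 in Control 2 (114-fold), Gcg from 0.00239 in NFF 1 to 1.73 in Control 4 (725-fold), Pyy from 0.0481 in Control 2 to 3.20 in SFB 3 (66.5-fold) and Nts from 0.678 in Control 2 to 14.9 in SFB 3 (22.05-fold).

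**Figure D4:**
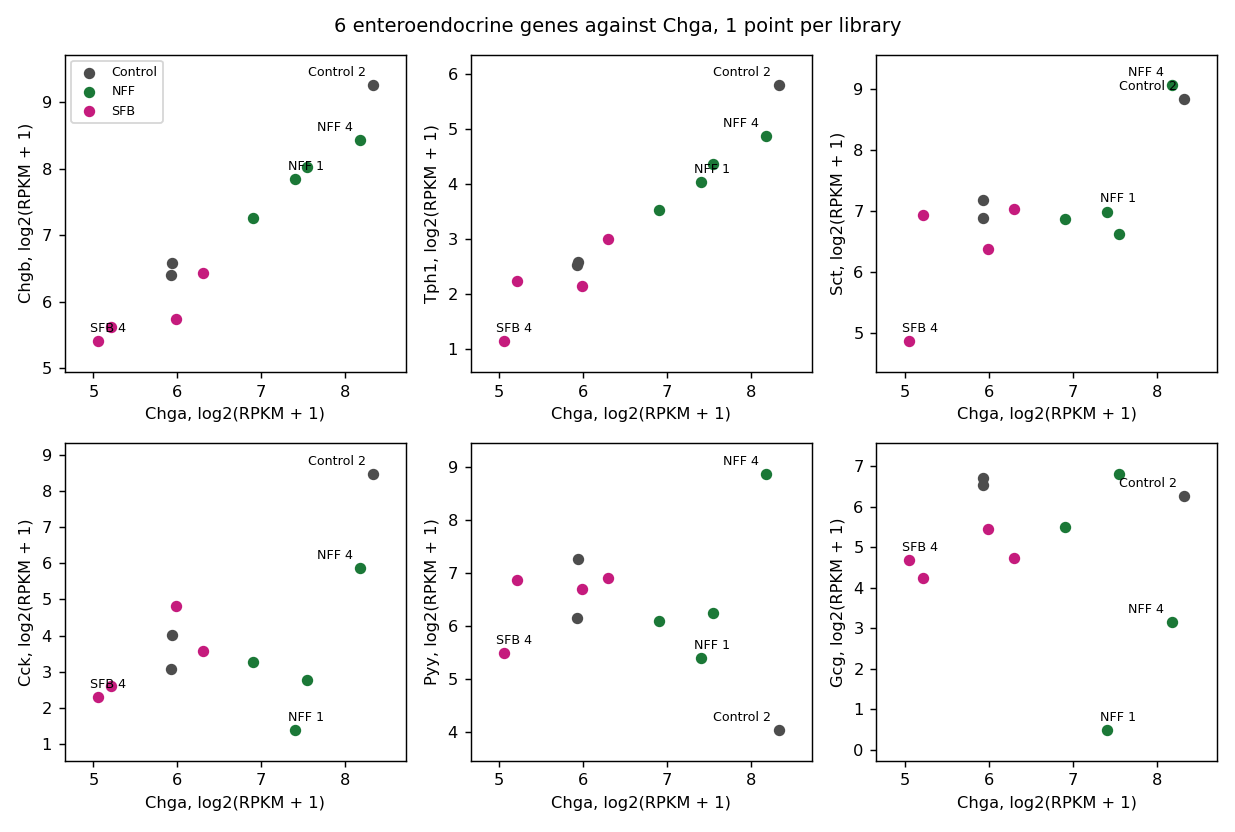
Levels of 6 genes against the level of Chga in the 11 libraries (log scale on both axes, points coloured by group). Chgb and Tph1 lie along a line with Chga (r = 0.98 and 0.97), Sct follows it less closely (r = 0.76), and Cck, Gcg and Pyy scatter.

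Most other enteroendocrine genes lay on the same side of 0 as the granins, and few passed the test. Of 100 other enteroendocrine genes listed in 7 groups (counted without Neurod1, which the factor list repeats), 64 were measured and 52 passed the filter. In SFB minus NFF, 6 of 52 (11.5%) were called lower and 0 higher, where 4.2% of all genes were called lower. Of the 52, 47 were below 0, where 47.3% of all genes were, and their median was -0.64. The number called lower was 14 of 50 without Control 2 (where 5.46% of all genes were called lower) and 3 without NFF 2, NFF 4, SFB 1 or SFB 4. For the latter settings, in that order, 1.4%, 1.84%, 3.03% and 4.01% of all genes were called lower. In SFB minus Control limma called 0 of the 52, with 11 at an unadjusted p under 0.05, where 12.1% of all genes had one. The median was -0.55, or -0.21 without Control 2. In NFF minus Control limma called 0, with 0 at an unadjusted p under 0.05 (4.82% of all genes), and 42 of 52 were above 0 with a median of 0.20. That median was 0.0070 without NFF 4 (24 of 50 below 0), 0.024 without Control 5, 0.042 without Control 4 and 0.52 without Control 2.

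The genes called lower in SFB than in NFF came from the lists of sensors, prohormone processing, exocytosis and other markers. Ffar3, a receptor for short-chain fatty acids, averaged 11.5 ± 4.56 RPKM (SD, n = 4) across NFF libraries and 1.49 ± 1.39 (SD, n = 4) across SFB libraries, a log2 difference of -2.41 ± 0.35 (SE) (limma adjusted p = 0.00289), with 7.20 ± 2.24 RPKM (SD, n = 3) in Control. Pcsk1n, an inhibitor of prohormone convertase 1, had 8.18 ± 6.02 and 1.29 ± 0.837 RPKM (-1.89 ± 0.45, adjusted p = 0.0278). Vamp2, a vesicle fusion protein, differed by -0.76 ± 0.13 (adjusted p = 0.00617). Tm4sf4, a membrane protein gene listed as a marker, had 450.5 ± 239 and 72.7 ± 34.4 RPKM (-2.64 ± 0.43, adjusted p = 0.00548). The potassium channel gene Kcnh6 differed by -1.52 ± 0.35 (adjusted p = 0.0273) and Bex2 by -1.95 ± 0.54 (adjusted p = 0.0494). Pcsk1n, Kcnh6 and Bex2 had Control 2 far above Control 4 and Control 5, as Chga did. Control 2, 4 and 5 were closer together for Ffar3 (8.21, 4.63 and 8.76 RPKM), Vamp2 (13.7, 11.5 and 13.3) and Tm4sf4 (431, 225 and 307). Which cells the RNA of these called genes came from was not tested.

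All 6 genes tested on the prohormone processing list, enzymes and their helper and inhibitor proteins, were below 0 in SFB minus NFF, with a median of -1.25. The 1 call was the inhibitor gene Pcsk1n, and no processing enzyme was called. Pcsk1, the main convertase of these cells, had 12.5 RPKM in NFF and 4.33 in SFB (-1.27, limma adjusted p = 0.0679), Cpe, which trims the cut peptides, differed by -1.29 (adjusted p = 0.15), and Pam, which amidates them, by -0.07 (adjusted p = 0.808). Of 7 other granin and granule genes, 0 were called by limma and 3 had an unadjusted p under 0.05, where 25.7% of all genes had one. Their median was -0.94. Scg2 differed by -0.67 (adjusted p = 0.584) and Scg3 by -0.66 (adjusted p = 0.325). Of 8 transcription factors tested, Neurod1 among them, 0 were called and 5 had an unadjusted p under 0.05 (25.7% of all genes), with a median of -0.51. Insm1, which acts early in endocrine differentiation, differed by -1.03 (adjusted p = 0.0612). Of 4 genes for other hormones and amine handling 0 were called and 1 had an unadjusted p under 0.05, near the share of all genes, with a median of -0.57. The vesicular amine transporter gene Slc18a1 differed by -1.11 (adjusted p = 0.0795) and Ddc, which makes serotonin from its precursor, by -0.55 (adjusted p = 0.24). Gip, Ghrl and Pcsk2 were not analysed here.

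Of 5 nutrient and microbial sensors, 1 was called lower, Ffar3, with a list median of -0.44. Ffar2, a second receptor for short-chain fatty acids, had 3.26 ± 2.00 RPKM in NFF and 0.934 ± 0.0995 in SFB (SD, n = 4 each), a difference of -1.04 ± 0.30 (limma adjusted p = 0.0557). The long-chain fatty acid receptor gene Ffar4 differed by -0.02 (adjusted p = 0.969) and the lysophosphatidic acid receptor gene Lpar5 by 0.07 (adjusted p = 0.801). Of 12 genes of excitability and exocytosis 1 was called lower (median -0.48), and of 12 other markers 3 were (median -0.75).

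Of the lists for other epithelial cells, the tuft cell list had all 13 genes tested called lower in SFB minus NFF (median -2.21). In calls, the goblet, Paneth and enterocyte lists were near the 7.34% of all genes called in either direction. Called were 1 of 14 goblet cell genes (median -0.92), 1 of 13 Paneth cell genes (median -1.80) and 1 of 16 enterocyte genes (median -0.39). Most were nevertheless below 0: 14 of 14, 13 of 13 and 14 of 16 in that order, where 47.3% of all genes were. An unadjusted limma p under 0.05 was reached by 10, 3 and 3 of them, where 25.7% of all genes had one. The Paneth median includes SFB 2, where that list was lowest. All 14 genes of crypt and dividing cells were above 0 in SFB minus NFF (median 1.25), and 4 of them were called higher, where 3.14% of all genes were. Their summed RPKM was 59.8 to 194 in Control, 48.6 to 71.7 in NFF and 98.2 to 408 in SFB. The part of these shifts in the granin difference was not tested. Without Control 2, SFB 2 and SFB 4, the granin differences were -1.91 for Chga (adjusted p = 0.00999) and -2.21 for Chgb (adjusted p = 0.00282). Of genes listed as markers of cells outside the gate, 2 of 13 leukocyte genes were measured, Ptprc and Lyz2. Their sum was 21.2 to 51.3 RPKM in Control and NFF and 2.00 to 18.5 in SFB, lowest in SFB 2. Most of it in Control and NFF was Lyz2, with means of 33.5 and 23.5 RPKM, against 1.25 and 1.89 for Ptprc. Measured too were 1 of 10 mast cell genes (Kit) and 2 of 15 genes of enteric neurons and glia (Ret and Chat). Of the pancreas genes 1 of 8 was measured (Cela1), and of the stromal genes 0 of 9. None of the measured genes was at 0. Whether their RNA came from cells outside the gate was not tested.

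**Figure D5:**
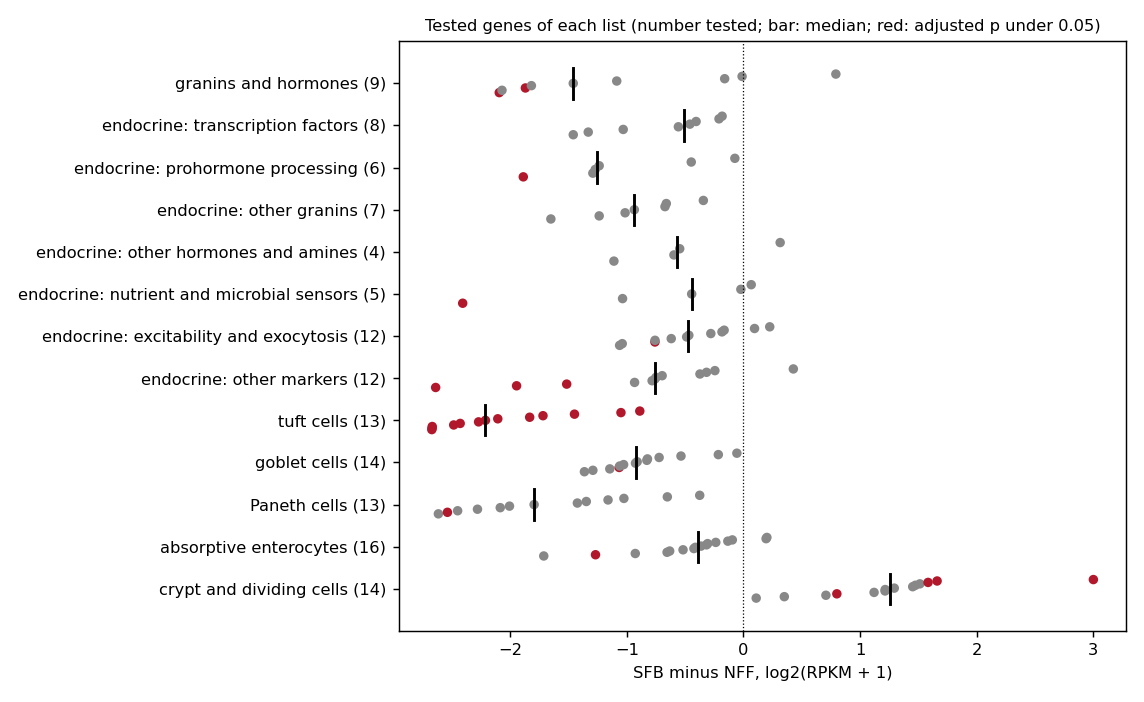
SFB minus NFF log2 differences of the genes tested in each list (points, 1 per gene; red, adjusted p under 0.05; bar, list median; labels give the number tested). The 9 granins and hormones have a median of -1.46, between the tuft cell list at -2.21 and the enterocyte list at -0.39, and the crypt and dividing cell list lies on the other side of 0 at 1.25.

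The genes whose levels most resembled those of the 9 over the 11 libraries were ranked by Pearson r to the mean z-scored log2 level of the 9. The 10 highest were Paxx (0.96), Resp18 (0.96), Gadd45g (0.96), Npdc1 (0.95), Selenom (0.95), Gm14207 (0.95), Arfgap3 (0.95), Bnip3 (0.94), Rundc3a (0.94) and Cpe (0.94). Their mean levels ran from 2.64 RPKM for Paxx to 26.7 RPKM for Arfgap3. Of these, Resp18, Rundc3a and Cpe were on the enteroendocrine lists. Of the 52 other enteroendocrine genes tested, 55.8% had an r over 0.8, where 3.59% of the 10473 tested genes outside the 9 did. The mean z-scored level was 1.02 in Control 2, 1.22 in NFF 4 and -1.30 in SFB 4. In the other libraries it lay between -0.42 and 0.27. It averages genes of which only 10 of 36 pairs passed the Pearson test above. The ranking was not repeated without Control 2, NFF 4 and SFB 4, so how far it rests on them was not tested.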

How the data were processed

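RNA of 11 libraries of sorted mouse small-intestinal epithelium (SMART-seq v4 cDNA, NexteraXT, per the labels' protocols) was measured by RNA-seq. The authors deposited 1 table of RPKM values per gene and library. The submitters' processing notes name STAR and mm10; these give no version or counting step. No steps of whole reads could be recovered (the commonest ratio between libraries covered at most 13.3% of low values in 55 pairs), so the depth stays unknown and no count test was run.

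Genes that reached 1 RPKM in 3 or more libraries (10482 of 11366) were tested in limma 3.58.1 (R 4.3.3) on log2(RPKM + 1), with 1 mean per group over all 11 libraries, a trended prior and Benjamini-Hochberg adjustment over all genes tested. A log2 difference on this scale understates the change of low genes. Correlations used 100000 permutations, two-sided. The limma and permutation steps were tested on simulated data. Named genes were the 10 listed, up to 4 called genes of each list by size of difference (or up to 2 of lowest p), fixed processing and granin genes, and the 10 genes most alike by r. The members, the 20 gene lists and the comparisons were chosen with earlier results of these data known, and the motifs after the values were seen. Alternatives were another pseudocount, 2 other filters, median ratio scaling, no trend, array weights, 2-group fits, a replicate block and leaving out libraries. The array weights did not converge and gave SFB 1 a weight of 22.1 against 0.152 to 2.49 elsewhere. Gene coordinates are from GENCODE M21 and promoters from RefSeq.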

Additional observations from a re-analysis of the deposited data

Results flagged for a closer look

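In groups of 4 libraries, a value was singled out when its gap to the nearest other library on the log2(RPKM + 1) scale exceeded 0.829 of the range of the group. Of 18 groups examined (9 genes in NFF and in SFB), 3 held such a value, where chance alone singles out about 1 in 20. The 18 are not independent, as Neurod1 and Sct, both singled out in NFF 4, had r = 0.95 over the 11 libraries. The count was therefore not tested against that rate. Neurod1 was at 33.9 RPKM in NFF 4, with a gap of 0.88 of the range, and Sct was at 533 RPKM in the same library, with a gap of 0.85. Pyy was at 44.1 RPKM in SFB 4, below the other SFB libraries, with a gap of 0.85.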

How the results depend on the processing

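The calls of Chga and Chgb in SFB minus NFF lay near the threshold. With 2 genes called in that comparison, median ratio scaling gave 1 (Chga limma adjusted p = 0.0516, with 8.59% of all genes called) and array weights 6 (with 45% of all genes called). Leaving out 1 library gave 0 to 3, with 2.3% to 9.52% of all genes called. In SFB minus Control array weights gave 1 call, Nts at -2.13 (adjusted p = 0.0167), with 18.6% of all genes called. The median of the 9 genes in SFB minus Control was -0.52 without Control 2 and NFF 4, and -0.36 without Control 2, SFB 2 and SFB 4, and ranged from -1.71 to -0.52 with 1 library left out. In NFF minus Control it was 0.035 with array weights and ranged from -0.029 to 0.69 with 1 library left out. The number of correlated pairs ranged from 7 to 16 with 1 library left out. No pairing of the libraries by number is stated. Same-numbered NFF and SFB libraries had correlations of deviations of 0.03, -0.17, -0.30 and -0.27. With Control, same-numbered libraries had -0.17 (Control 2 with NFF 2), 0.20 (Control 2 with SFB 2) and -0.28 (Control 4 with NFF 4). Control 4 with SFB 4 had 0.67, the highest of all pairs between groups. The replicate block gave 1 call in SFB minus NFF (Chgb, limma adjusted p = 0.0423), with 335 genes called in all against 769. It called 3 of the 52 other enteroendocrine genes lower against 6, where 1.88% of all genes were called lower against 4.2%. Of those 52, 32 were called lower with array weights, where 23.7% of all genes were, and 12 with the 2 groups alone, where 4.6% were. Without Control 2 and NFF 4, 12 of 43 were called lower, where 3.03% of all genes were.

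No difference that changed sign was called in the fit with every library, and the cause was not tested. With array weights, which did not converge, Nts was -0.19 in NFF minus Control, Cck was 1.01 in SFB minus Control, and in SFB minus NFF Cck was 1.87 (adjusted p = 0.0183) and Pyy 0.53. The replicate block gave Neurod1 -0.21 in NFF minus Control, and a pseudocount of 0.1 gave Cck 0.060 in SFB minus NFF. Without Control 2, SFB 2 and SFB 4, NFF minus Control was 0.36 for Sct and -0.059 for Pyy, SFB minus Control was 0.16 for Cck, and SFB minus NFF was 0.37 for Cck and 0.13 for Pyy. Without Control 2 and NFF 4, a setting chosen after seeing the data, NFF minus Control was -0.80 for Pyy and -0.14 for Nts, SFB minus Control was -0.22 for Pyy, and SFB minus NFF was 0.84 for Cck and 0.58 for Pyy.

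With 1 library left out, NFF minus Control ranged from -0.029 to 1.39 for Chgb, -0.31 to 0.94 for Neurod1, -0.80 to 0.36 for Sct and -0.059 to 1.56 for Pyy. SFB minus Control ranged from -0.22 to 1.396 for Pyy. SFB minus NFF ranged from -0.66 to 0.84 for Cck, -0.37 to 1.73 for Gcg and -0.58 to 0.58 for Pyy. Pearson r ranged from -0.32 to 0.043 for Chga with Gcg, -0.61 to 0.34 for Chga with Pyy, -0.53 to 0.16 for Gcg with Pyy, -0.45 to 0.87 for Cck with Pyy, -0.33 to 0.80 for Sct with Pyy and -0.23 to 0.73 for Pyy with the regional difference. The unknown depth leaves the precision of single values, such as 0.402 RPKM of Gcg in NFF 1, without a counting error.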
